A study of Rattus norvegicus with 10 samples.

Results

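Islet chemokines were followed as 10 genes: Cxcl10, Cxcl9, Cxcl1, Cxcl2, Cxcl12, Ccl2, Ccl5, Ccl11, Ccl20 and Cx3cl1. Every probe set annotated to 1 of these symbols alone was taken, which gave 13 of the 31042 probe sets tested, and the 10 genes are among 14217 with a probe set of their own. Cxcl9 had 2 probe sets and Cxcl12 had 3. RNA came from pancreatic islets of male rats aged 40 days, fasted before tissue collection, and was hybridised to 10 arrays, 2 for each of 5 groups. DR+/+ rats (a strain labelled diabetes resistant, but inducible) and JB rats (labelled diabetes inducible) carry no lyp mutation. JBlyp/lyp rats, labelled diabetes prone, are homozygous for lyp. F344 rats and F344lyp rats, the latter carrying lyp, are the healthy controls. DR+/+, JB and JBlyp/lyp are called BB-related here, after the BioBreeding (BB) rat, which develops autoimmune diabetes; the lyp mutation causes its loss of T cells. No group received a treatment. The labels do not say how JB relates to DR, nor whether an array holds islets of 1 animal or of several, so p-values rest on the spread of these samples alone, which may be partly technical.

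Chemokines are small secreted proteins that guide leukocytes along gradients through G protein-coupled receptors. In islets, beta cells, endothelium, stroma and resident macrophages can all make them, and several are induced by interleukin-1, tumour necrosis factor and interferon gamma through NF-kB and interferon regulatory factors. CXCL10 and CXCL9 attract T cells through CXCR3, CXCL1 and CXCL2 attract neutrophils through CXCR2, and CXCL12 is a largely constitutive stromal signal.

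Promoters of 7 of the 10 genes were found in RefSeq (build GRCr8). Those of 4 CXC genes on chromosome 14 are shown because they form neighbouring sets, Cxcl10 beside Cxcl9 and Cxcl2 beside Cxcl1, whose members had unlike values below. Each line gives the 250 bases before the transcription start, 5′ to 3′ on the gene's own strand, and capitals mark matches to an NF-kB or interferon element:
Cxcl10: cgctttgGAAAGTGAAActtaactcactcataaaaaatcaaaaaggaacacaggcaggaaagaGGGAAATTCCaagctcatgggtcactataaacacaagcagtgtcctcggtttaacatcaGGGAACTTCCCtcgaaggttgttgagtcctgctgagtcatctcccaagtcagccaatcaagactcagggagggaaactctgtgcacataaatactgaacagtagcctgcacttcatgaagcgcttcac
Cxcl9: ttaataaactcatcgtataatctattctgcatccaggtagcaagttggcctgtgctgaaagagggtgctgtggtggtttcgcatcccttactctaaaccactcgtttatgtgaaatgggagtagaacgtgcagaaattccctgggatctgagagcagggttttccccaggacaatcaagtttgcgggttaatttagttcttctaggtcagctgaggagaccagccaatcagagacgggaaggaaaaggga
Cxcl1: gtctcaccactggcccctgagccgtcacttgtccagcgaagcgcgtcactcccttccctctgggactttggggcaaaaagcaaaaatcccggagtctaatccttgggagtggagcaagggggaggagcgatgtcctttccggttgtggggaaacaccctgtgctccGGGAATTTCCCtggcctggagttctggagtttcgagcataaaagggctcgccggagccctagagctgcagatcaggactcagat
Cxcl2: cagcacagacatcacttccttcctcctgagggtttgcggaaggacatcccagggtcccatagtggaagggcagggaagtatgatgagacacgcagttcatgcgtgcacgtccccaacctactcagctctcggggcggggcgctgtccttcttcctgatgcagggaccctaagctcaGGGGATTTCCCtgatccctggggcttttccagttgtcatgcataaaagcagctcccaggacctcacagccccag

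These windows lie at chr14:15988816-15989065 (plus strand) for Cxcl10, chr14:16006916-16007165 (plus) for Cxcl9, chr14:17479322-17479571 (minus) for Cxcl1 and chr14:17467256-17467505 (minus) for Cxcl2. The NF-kB form GGGA, any 2 bases, TTCC, searched on both strands, matched the Cxcl10 window from 187 and from 128 bases before the start and the Cxcl1 window from 84 bases before it. It was found in 1.08% of 33469 promoter windows of 250 bases. The looser published consensus, known as the degenerate NF-kB consensus, overlapped these matches and also matched Cxcl2 from 74 bases before the start and Ccl20 from 89, against 6.33% of all windows. The interferon-stimulated response element, searched as GAAA, any 2 bases, GAAA, matched the Cxcl10 window from 243 bases before the start, against 3.41% of all windows. The Cxcl9, Cxcl12 and Cx3cl1 windows held none of these letters. Matches describe letters only, and no binding was measured.

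Values are log2 intensities, so a difference of 1 is a doubling, and differences are given with their standard error (SE) from limma and with p-values adjusted by Benjamini-Hochberg over all probe sets. A difference was called, and described as higher or lower, at an adjusted p under 0.05. Levels are compared between arrays for a probe set, not between probe sets. The islet label was checked with 8 beta cell genes, whose mean lay between 11.47 and 11.72 on the JB, JBlyp/lyp, F344 and F344lyp arrays but at 9.81 and 9.95 on the DR+/+ arrays. The mean of 17 acinar genes ran from 9.80 to 11.40 on the BB-related arrays and from 12.53 to 13.29 on the F344 and F344lyp arrays. Within the BB-related arrays it was 9.80 and 9.83 in DR+/+, 11.09 and 11.40 in JB and 10.78 and 11.36 in JBlyp/lyp. Of the 17, 15 were lower in DR+/+ than in JB (adjusted p under 0.05), beside 18.4% of all genes. The excess of the 3′ over the 5′ Gapdh control probe set, a sign of RNA length, ran from 2.75 to 3.71 on the BB-related arrays and from 2.19 to 2.43 on the F344 and F344lyp arrays, without overlap. With that excess as a covariate, 0 of the 13 probe sets were called in the 4 comparisons across this divide (BB-related, JB, JBlyp/lyp or DR+/+ against F344 or F344lyp), nor was any member of the lists of other chemokines, receptors, proteases, interferon gamma or NF-kB genes described below. The covariate raised the standard error of a chemokine difference by a median of 3.32 times in JB against F344, and not all differences shrank with it. Cxcl10 in JB against F344 was 3.95 with the covariate (SE 0.61, unadjusted p = 0.000157, adjusted p = 0.377 by limma) and 2.65 without. Cxcl12 1388583_at in DR+/+ against F344 was 2.08 with it (SE 0.38, adjusted p = 0.0633) and 2.29 without, and Cxcl1 in JB against F344 was 1.46 (SE 0.84, adjusted p = 0.999) and 1.56. Ccl5 in JB against F344 was -0.56 with it (SE 0.58, adjusted p = 0.999) and -1.45 without. The DR+/+ and JB arrays overlapped in it (3.18 and 3.39 against 3.31 and 3.71), and between them 6 of the 13 were called with the covariate and 7 without, the call lost being that of Ccl20. In whole islets, fewer cells of a type and less RNA per cell cannot be told apart.

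**Figure D1:**
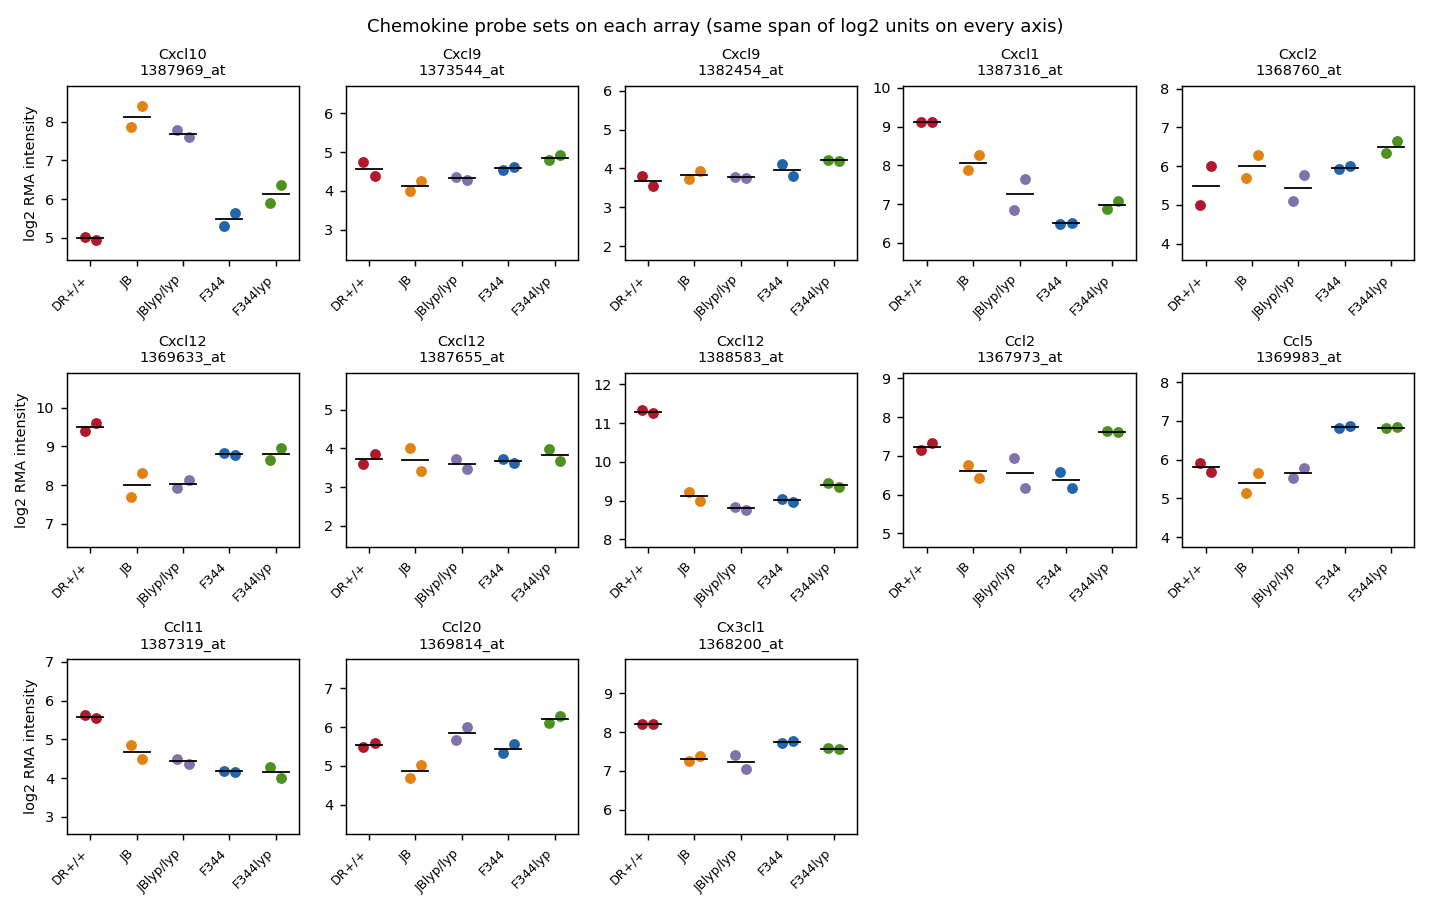
Log2 RMA intensity (vertical axis) of each of the 13 chemokine probe sets on each array, with groups along the horizontal axis; points are arrays, lines are means of 2, and all axes span the same number of log2 units. Cxcl10 stands at 7.59 to 8.40 on the JB and JBlyp/lyp arrays and at 4.96 to 6.36 elsewhere, and Cxcl12 1388583_at at 11.25 and 11.35 in DR+/+ and at 8.76 to 9.46 elsewhere.

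Cxcl10, the interferon-inducible ligand of CXCR3, had the widest range of group means, 3.15 on the log2 scale or 8.85-fold. It read 7.86 and 8.40 on the JB arrays and 7.79 and 7.59 on the JBlyp/lyp arrays. It read 5.01 and 4.96 on the DR+/+ arrays, 5.31 and 5.64 in F344, and 5.90 and 6.36 in F344lyp. All 4 JB and JBlyp/lyp arrays thus lay above all other arrays, and DR+/+, though labelled inducible like JB, lay lowest. Cxcl10 was higher in JB than in F344 by 2.65 (SE 0.22, adjusted p = 0.000126), a 6.29-fold difference. It was higher in JBlyp/lyp than in F344lyp by 1.56 (SE 0.22, adjusted p = 0.00183), or 2.95-fold. DR+/+ was 3.15 below JB (difference -3.15, SE 0.22, adjusted p = 1.26e-05), a difference also called with the RNA measure as a covariate and without any 1 array. No neighbouring groups in the order of means overlapped, and of the 4 steps that from JBlyp/lyp to F344lyp was called. The steps from JB to JBlyp/lyp (0.44, adjusted p = 0.826), F344lyp to F344 (0.65, adjusted p = 0.19) and F344 to DR+/+ (0.49, adjusted p = 0.116) were not called.

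Cxcl9, the other CXCR3 ligand among the 10 genes and the gene next to Cxcl10, did not follow it. Its probe set 1373544_at read 4.01 and 4.26 in JB, 4.35 and 4.29 in JBlyp/lyp and 4.73 and 4.39 in DR+/+. It read 4.54 and 4.62 in F344 and 4.79 and 4.92 in F344lyp, so that the JB and JBlyp/lyp arrays were the lowest where those of Cxcl10 were the highest. The JB mean was below the F344 mean by 0.45 (difference -0.45, SE 0.16, adjusted p = 0.107), which was not called. Against all F344 arrays the BB-related mean of this probe set was lower (difference -0.38, SE 0.10, adjusted p = 0.0176) and that of the other Cxcl9 probe set, 1382454_at, was too (difference -0.32, SE 0.10, adjusted p = 0.0324). The group order differed in 1382454_at, where DR+/+ had the lowest mean (3.68), below JBlyp/lyp (3.77) and JB (3.83). All arrays lay between 3.55 and 4.92 in these probe sets, under the medians of the arrays (5.39 to 5.44), and the calls ended without F344 replicate 1 or F344lyp replicate 2 (adjusted p up to 0.0754 and 0.164), and without several other arrays.

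Cxcl11, the gene on the other side of Cxcl10 and another CXCR3 ligand, belongs to the list of other chemokines and was singled out for its place after its values were seen. It read 8.44 and 8.98 in JB and 8.75 and 8.89 in JBlyp/lyp, and 6.02 and 6.63 in DR+/+. It read 7.97 and 8.0 in F344 and 7.63 and 8.04 in F344lyp, between these sets. DR+/+ was lower than JB (difference -2.39, SE 0.24, adjusted p = 7.68e-05) and than F344 (difference -1.66, SE 0.24, adjusted p = 0.000558). JBlyp/lyp exceeded F344lyp by 0.98 (SE 0.24, adjusted p = 0.0252), a call that ended without JBlyp/lyp replicate 2 or either F344lyp array, while the JB excess over F344 of 0.73 (adjusted p = 0.0828) was not called.

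**Figure D2:**
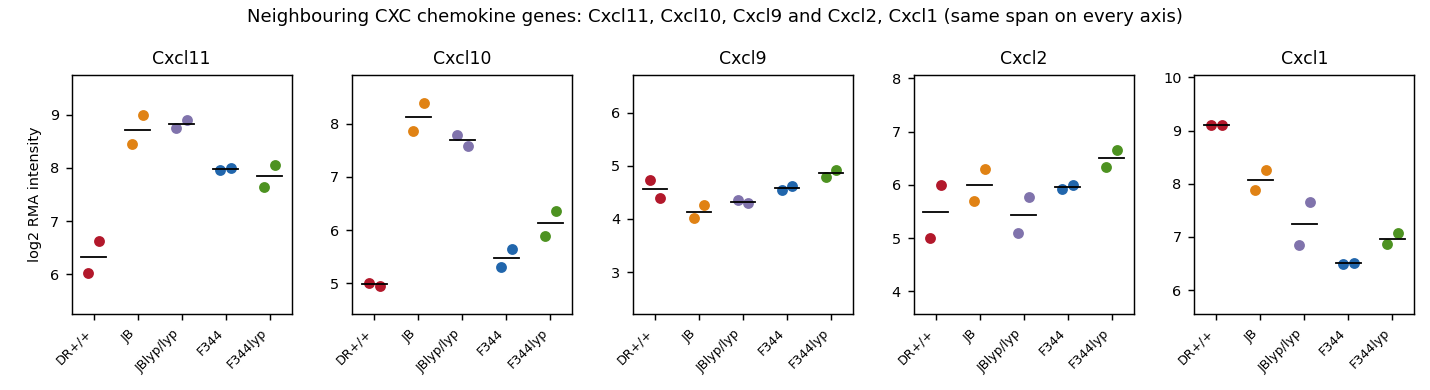
Log2 RMA intensity (vertical axis) by group (horizontal axis) for the neighbouring genes Cxcl11, Cxcl10 and Cxcl9 and for the neighbours Cxcl2 and Cxcl1; points are arrays and lines are means of 2. In JB and JBlyp/lyp the points of Cxcl11 and Cxcl10 are high and those of Cxcl9 are not, and in DR+/+ Cxcl1 stands at 9.11 on both arrays while Cxcl2 reads 5.00 and 6.00.

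Cxcl1 and Cxcl2, which encode neutrophil-attracting CXCR2 ligands and are neighbours, also differed from each other. Cxcl1 read 9.11 on both DR+/+ arrays, 7.88 and 8.26 in JB and 6.85 and 7.65 in JBlyp/lyp. It read 6.50 and 6.52 in F344 and 6.87 and 7.07 in F344lyp. The DR+/+ arrays lay above all others, the JB arrays came next, and the JBlyp/lyp and F344lyp arrays overlapped. Cxcl1 was 6.07-fold higher in DR+/+ than in F344 (log2 difference 2.60, SE 0.24, adjusted p = 3.59e-05) and 2.95-fold higher in JB than in F344 (1.56, SE 0.24, adjusted p = 0.0033). It was also higher in DR+/+ than in JB by 1.04 (SE 0.24, adjusted p = 0.00877), which ended without JB replicate 1 (adjusted p = 0.0617). Between JBlyp/lyp and F344lyp the difference was 0.28 (SE 0.24, adjusted p = 0.482) with an interval from -0.25 to 0.81.

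Cxcl2 was called in none of the 8 comparisons of the design. It read 5.00 and 6.00 in DR+/+, 5.69 and 6.29 in JB, 5.10 and 5.77 in JBlyp/lyp, 5.92 and 6.00 in F344 and 6.34 and 6.65 in F344lyp. The DR+/+ arrays alone were 1 log2 unit apart, so the precision was lower than for Cxcl1. The difference between DR+/+ and F344 was -0.46 with a 95% interval from -1.21 to 0.29, and that between JB and F344 was 0.03 with an interval from -0.72 to 0.78. JBlyp/lyp lay below F344lyp by 1.06 (difference -1.06, SE 0.34, adjusted p = 0.0644), which was called without either DR+/+ array or without JBlyp/lyp replicate 2.

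Cxcl12, a signal for stem cells, lymphocytes and endothelium through CXCR4 and ACKR3, was highest in DR+/+ in 2 of its 3 probe sets. The probe set 1388583_at read 11.35 and 11.25 in DR+/+, 9.22 and 8.99 in JB, 8.85 and 8.76 in JBlyp/lyp, 9.05 and 8.97 in F344 and 9.46 and 9.34 in F344lyp. Both DR+/+ arrays lay above the other 8, which spanned 8.76 to 9.46. DR+/+ was higher than JB by 2.19 (SE 0.14, adjusted p = 8.49e-06), or 4.57-fold, and higher than F344 by 2.29 (SE 0.14, adjusted p = 4.57e-06), or 4.90-fold. JBlyp/lyp was lower than F344lyp (difference -0.60, SE 0.14, adjusted p = 0.0194), a call that ended without JBlyp/lyp replicate 2 or either F344lyp array. JB and F344 differed by 0.10 (adjusted p = 0.719) with an interval from -0.21 to 0.41.

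The probe set 1369633_at read 9.39 and 9.61 in DR+/+, 7.70 and 8.30 in JB, 7.92 and 8.14 in JBlyp/lyp, 8.82 and 8.78 in F344 and 8.65 and 8.96 in F344lyp. It put DR+/+ above JB by 1.50 (SE 0.21, adjusted p = 0.000496), as 1388583_at did, but also JB below F344 (difference -0.80, SE 0.21, adjusted p = 0.0342), where 1388583_at gave 0.10. It put JBlyp/lyp below F344lyp (difference -0.77, SE 0.21, adjusted p = 0.0348) and DR+/+ above F344 by 0.70 (SE 0.21, adjusted p = 0.0266). The JB call ended without JB replicate 1 or any DR+/+, F344 or F344lyp array (adjusted p up to 0.2), the JBlyp/lyp call without any 1 array but those of JB (up to 0.224) and the DR+/+ call against F344 without either array of DR+/+ or F344. The remaining probe set, 1387655_at, read between 3.41 and 4.0 on all arrays and was called in no comparison of the design. Which transcripts each probe set detects was not analysed here.

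Both receptor genes of CXCL12 were also higher in DR+/+. Cxcr4, the signalling receptor, read 10.05 and 9.77 in DR+/+ and 7.79 to 8.64 on the other arrays, through a probe set whose suffix marks probes that may match other transcripts. It was higher in DR+/+ than in JB by 1.60 (SE 0.25, adjusted p = 0.00111) and than in F344 by 1.39 (SE 0.25, adjusted p = 0.00213). Ackr3, a scavenging receptor, read 9.19 and 8.96 in DR+/+ and was higher than in JB by 1.22 (SE 0.15, adjusted p = 0.00026) and than in F344 by 1.53 (SE 0.15, adjusted p = 5.47e-05). Ackr3 was lower in JBlyp/lyp than in F344lyp (difference -0.64, SE 0.15, adjusted p = 0.0212), which ended without JBlyp/lyp replicate 2 or F344lyp replicate 2. Marker genes of other islet cells stood apart in DR+/+ too, where 15.5% of all genes were higher and 18.4% lower than in JB. The mean of 12 endothelial genes was 9.65 and 9.70 in DR+/+ and 8.32 to 8.69 elsewhere, with 11 of 12 higher in DR+/+ than in JB (7 without DR+/+ replicate 1). The mean of 17 stellate and fibroblast genes was 9.33 and 9.39 in DR+/+ and 8.06 to 8.70 elsewhere, with 11 of 17 higher and 0 lower in DR+/+ than in JB, and 7 of 8 beta cell genes were lower. Their part in the Cxcl12 result, and in those of the receptors and other genes higher in DR+/+ than in JB, was not tested.

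**Figure D3:**
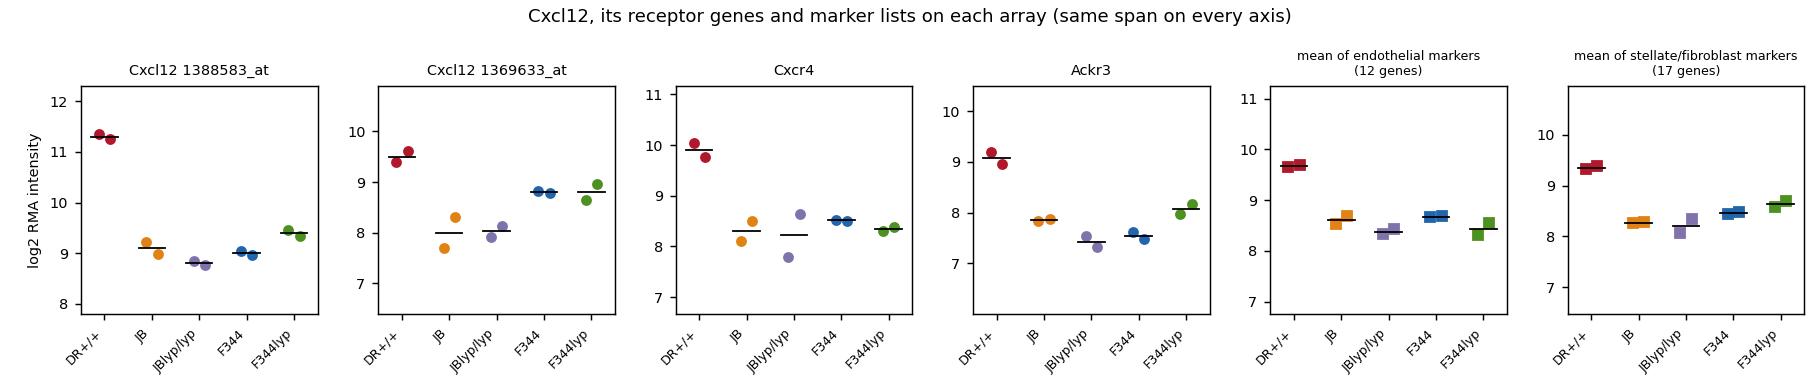
Log2 RMA intensity (vertical axis) by group (horizontal axis) for 2 probe sets of Cxcl12, for its receptor genes Cxcr4 and Ackr3, and for the mean of 12 endothelial and 17 stellate and fibroblast genes; points are arrays (for the marker means, the lower array of a group is drawn to the left), and lines are means of 2. In every panel both DR+/+ points lie above all others, Cxcl12 1388583_at at 11.25 and 11.35 and the endothelial mean at 9.65 and 9.70.

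Cx3cl1 encodes fractalkine, a membrane-anchored chemokine of endothelium that is shed by ADAM proteases and binds CX3CR1. It read 8.21 on both DR+/+ arrays, 7.25 and 7.39 in JB, 7.41 and 7.04 in JBlyp/lyp, 7.73 and 7.77 in F344 and 7.58 and 7.57 in F344lyp. The DR+/+ arrays were the highest and the JB and JBlyp/lyp arrays the lowest, with no overlap with the F344 and F344lyp arrays. DR+/+ was higher than JB by 0.89 (SE 0.15, adjusted p = 0.00157) and than F344 by 0.46 (SE 0.15, adjusted p = 0.0401), the latter not called without any of 6 arrays (DR+/+, F344 or F344lyp, adjusted p up to 0.178). The JB mean was 0.43 below that of F344 (difference -0.43, SE 0.15, adjusted p = 0.0964), which was not called.

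Ccl11, or eotaxin, attracts eosinophils through CCR3. It read 5.62 and 5.56 in DR+/+, 4.87 and 4.51 in JB, 4.49 and 4.38 in JBlyp/lyp, 4.20 and 4.17 in F344 and 4.29 and 4.01 in F344lyp. Every BB-related array lay above every F344 and F344lyp array, with DR+/+ set apart from the rest. Outside DR+/+ the arrays lay between 4.01 and 4.87, under the medians of the arrays (5.39 to 5.44). The lowest BB-related array, at 4.38 in JBlyp/lyp, was close to the highest of F344lyp, at 4.29. DR+/+ was higher than F344 by 1.41 (SE 0.16, adjusted p = 0.000132) and than JB by 0.90 (SE 0.16, adjusted p = 0.00227). JB exceeded F344 by 0.51 (SE 0.16, adjusted p = 0.0747) and JBlyp/lyp exceeded F344lyp by 0.28 (SE 0.16, adjusted p = 0.287), neither of which was called. Eosinophil and mast cell genes (13 measured) did not share this order, with means of 3.75 to 3.95 on the BB-related arrays, 4.0 and 4.06 in F344 and 4.44 and 4.47 in F344lyp. This list joins both cell types, and its means also lay under the medians of the arrays. The part of eosinophils in the Ccl11 result was not tested.

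Ccl5, or RANTES, is made by T cells, macrophages and platelets. It read 6.83 and 6.87 in F344 and 6.82 and 6.84 in F344lyp. It read 5.92 and 5.70 in DR+/+, 5.13 and 5.67 in JB and 5.52 and 5.78 in JBlyp/lyp, so that all 6 BB-related arrays lay below all 4 F344 and F344lyp arrays. Ccl5 was lower in JB than in F344 (difference -1.45, SE 0.19, adjusted p = 0.00142), a 2.73-fold difference. It was lower in JBlyp/lyp than in F344lyp (difference -1.18, SE 0.19, adjusted p = 0.00362) and in DR+/+ than in F344 (difference -1.04, SE 0.19, adjusted p = 0.00211). Differences among the 3 BB-related groups were not called. Their neighbouring means differed by 0.16 (adjusted p = 0.584) and 0.25 (adjusted p = 0.894). The outer pair, DR+/+ against JB, differed by 0.41 (SE 0.19, adjusted p = 0.141), and its arrays did not overlap. That difference ran from 0.14 to 0.68 when 1 array was left out. F344lyp and F344 differed by -0.02 with an interval from -0.44 to 0.40. The mean of 20 macrophage and dendritic cell genes had the same divide, at 5.31 to 5.56 on BB-related arrays, 5.98 and 6.11 in F344 and 6.31 and 6.38 in F344lyp, with 11 of 20 lower in JB than in F344 and 0 higher (5 lower without JB replicate 2, 2 and 3 without F344 replicate 1 and 2). Over all genes 8.22% were lower and 4.79% higher in JB than in F344. T cell genes (18 measured) had means of 4.75 and 4.78 in JB, 4.47 and 4.54 in JBlyp/lyp, 4.98 and 5.03 in DR+/+, 5.11 and 5.15 in F344 and 4.66 and 4.71 in F344lyp. The part of either cell type in the Ccl5 result was not tested.

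Ccl2, or MCP-1, draws monocytes through CCR2. It read 7.64 and 7.61 in F344lyp, 7.15 and 7.33 in DR+/+, 6.77 and 6.44 in JB, 6.93 and 6.16 in JBlyp/lyp and 6.58 and 6.18 in F344. The F344lyp arrays lay above all others and the F344, JB and JBlyp/lyp arrays overlapped. Ccl2 was higher in F344lyp than in F344 by 1.25 (SE 0.25, adjusted p = 0.0436), or 2.37-fold with a log2 interval from 0.70 to 1.80. This was the chemokine call for lyp in F344, and it ended when any DR+/+, F344 or F344lyp array was left out (adjusted p up to 0.363) and with the RNA measure as a covariate (adjusted p = 0.178). In JB the lyp difference was -0.06 (SE 0.25, adjusted p = 0.994). The difference between these lyp effects was -1.30 (SE 0.35, adjusted p = 0.3) and not called, except without JBlyp/lyp replicate 1 (adjusted p = 0.0367). JBlyp/lyp was lower than F344lyp (difference -1.08, SE 0.25, adjusted p = 0.0188), which ended without JBlyp/lyp replicate 2 or either F344lyp array. DR+/+ was higher than F344 by 0.86 (SE 0.25, adjusted p = 0.0228), which ended without either DR+/+ array or F344 replicate 2. Ccl7, the next gene and another CCR2 ligand, was called in none of the 8 comparisons, with 0.38 (SE 0.21, adjusted p = 0.424) for lyp in F344.

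Ccl20 attracts CCR6-bearing T helper 17 cells, B cells and dendritic cells. It read 5.66 and 6.01 in JBlyp/lyp against 4.70 and 5.02 in JB, and 6.11 and 6.29 in F344lyp against 5.33 and 5.55 in F344. DR+/+ read 5.49 and 5.60. On both backgrounds the lyp arrays lay above their partners without overlap. With 2 arrays a group that is frequent, and its share over all probe sets was not counted. The arrays of Cxcl1, Cxcl10, Cxcl9 1373544_at and Cxcl12 1388583_at did not overlap on either background. Of these, Cxcl9 1373544_at also lay higher with lyp on both, by 0.19 in JB and 0.28 in F344, and neither was called. Neither Ccl20 difference was called, at 0.98 (SE 0.17, adjusted p = 0.218) in JB with an interval from 0.58 to 1.37, and 0.76 (SE 0.17, adjusted p = 0.0692) in F344 with an interval from 0.37 to 1.15. The F344 difference was called with only the groups compared (adjusted p = 0.00634), with the replicate number as a block (0.0221) and without either JBlyp/lyp array (0.0399), and its adjusted p otherwise ran up to 0.472. The difference between them was 0.22 (SE 0.25, adjusted p = 0.898) with an interval from -0.34 to 0.77. Averaged over both backgrounds, a contrast chosen after these values were seen, Ccl20 was higher with lyp by 0.87 (SE 0.12, adjusted p = 0.0175), when 0.783% of all probe sets were called and it was the chemokine called. That call ended without either F344 array or F344lyp replicate 2 (adjusted p up to 0.127). DR+/+ was higher than JB by 0.68 (SE 0.17, adjusted p = 0.0156), which ended without either DR+/+ array, without JB replicate 1 and with the RNA measure as a covariate.

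**Figure D4:**
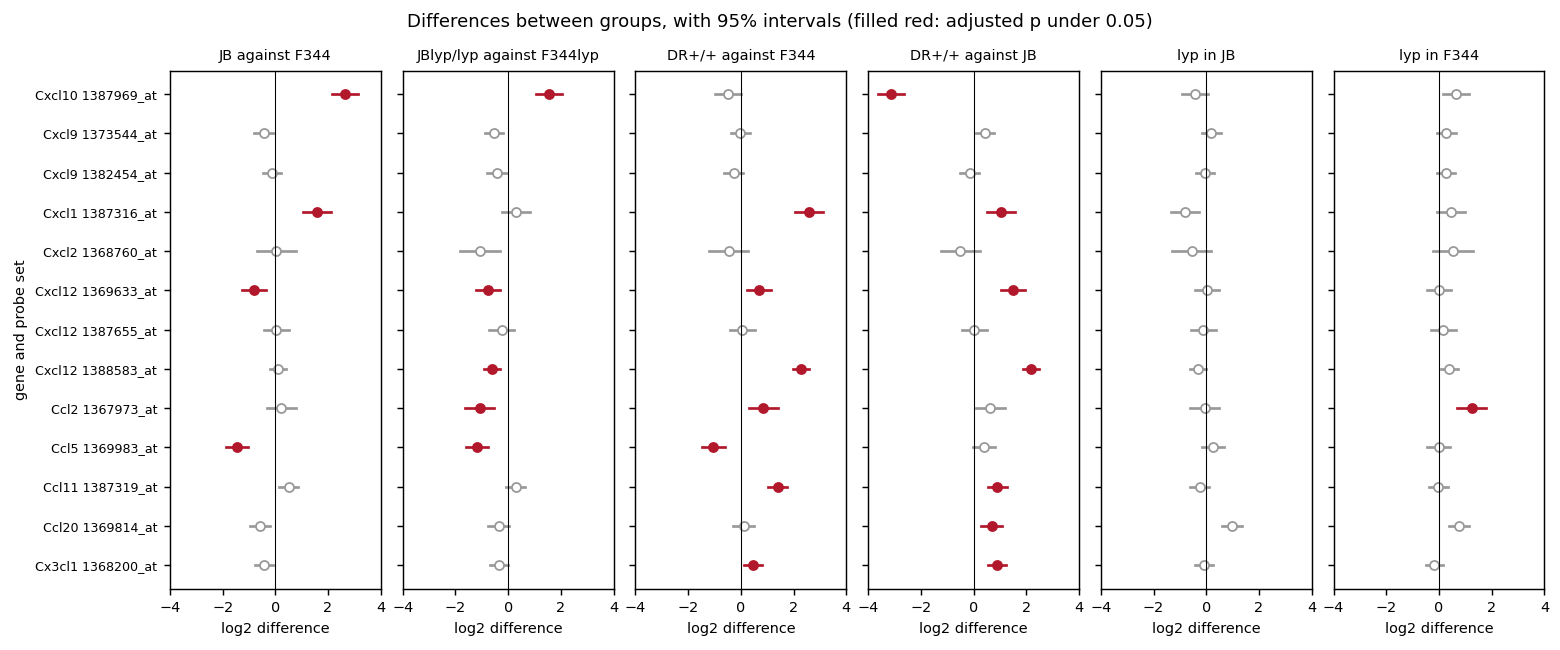
Log2 difference between groups (horizontal axis) with its 95% interval for each chemokine probe set (vertical axis) in 6 comparisons; filled red points have an adjusted p under 0.05. Cxcl10 lies at 2.65 in JB against F344 and at -3.15 in DR+/+ against JB, while in the lyp panels the filled point is Ccl2 in F344 at 1.25.

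Counted over the 13 probe sets, JB against F344 had 4 called, 2 higher (Cxcl10 and Cxcl1) and 2 lower (Ccl5 and a Cxcl12 probe set), where 11.6% of all probe sets were called, 6.23% higher and 5.35% lower. JBlyp/lyp against F344lyp had 5, with Cxcl10 higher and 4 lower (Ccl5, Ccl2 and 2 of Cxcl12), against 14.1%, with 6.57% higher and 7.55% lower. DR+/+ against JB had 7, with Cxcl10 lower and 6 higher (2 of Cxcl12, Cxcl1, Ccl11, Cx3cl1 and Ccl20), against 28.3%, of which 13.0% were higher and 15.4% lower. DR+/+ against F344 had 7, with Ccl5 lower and 6 higher (2 of Cxcl12, Cxcl1, Ccl11, Ccl2 and Cx3cl1), against 32.9%, with 15.6% higher and 17.3% lower. These comparisons share groups: JB enters 2 of them, F344 2 and DR+/+ 2. The median difference over the 10 genes, each by its brightest probe set, was 0.66 in DR+/+ against JB and 0.28 in DR+/+ against F344, beside -0.04 and -0.06 over all 14217 genes. It was 0.07 in JB against F344 and -0.45 in JBlyp/lyp against F344lyp, beside -0.04 in both over all genes.

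When the 3 BB-related group means were averaged against the F344 and F344lyp means, 8 of the 13 were called, where 33.2% of all probe sets were, 16.2% higher and 17.0% lower. Cxcl1 (1.40, SE 0.15, adjusted p = 0.000143), Cxcl10 (1.13, SE 0.14, adjusted p = 0.000295), Ccl11 (0.74, SE 0.10, adjusted p = 0.00058) and Cxcl12 1388583_at (0.53, SE 0.09, adjusted p = 0.00149) were higher. Ccl5 (-1.22, SE 0.12, adjusted p = 8.64e-05), Ccl20 (-0.41, SE 0.11, adjusted p = 0.0198) and both Cxcl9 probe sets were lower. Arrays of both sides did not overlap for Ccl5 and Ccl11, whereas for the other 6 they overlapped. How often the sides do not overlap over all probe sets was not counted, so this does not set these 2 genes apart from others on the array. The BB-related average joined unlike groups, with DR+/+ against JB called, for Cxcl10, Cxcl1, Ccl20, Cxcl12 1388583_at and also Ccl11. The Cxcl12 value was -0.25 without the DR+/+ arrays (adjusted p = 0.112), and that of Cxcl10 was 2.11. When the spread between groups of a side entered the error, as a random block, Ccl5 was called (adjusted p = 0.0109) and the other 7 were not, with Cxcl10 at an adjusted p of 0.446 and Cxcl1 at 0.115.

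For lyp, limma called 0 of 13 probe sets in JB, where 0.00322% of all probe sets were called, and 2 had an unadjusted p under 0.05 (Ccl20 and Cxcl1), beside 6.23% of all. In F344 it called Ccl2, where 1.51% of all were. The Gapdh 3′ excess also did not overlap within the lyp pairs. It read 3.71 and 3.31 in JB, 2.75 and 2.97 in JBlyp/lyp, 2.43 and 2.35 in F344, and 2.20 and 2.19 in F344lyp. With it as a covariate, Cxcl10 for lyp in JB was -1.19 (SE 0.38, unadjusted p = 0.0136 by limma, not called) and -0.44 without. Ccl20 there was 0.85 (SE 0.38) with it and 0.98 without, and Cxcl1 -0.76 (SE 0.53) and -0.82. The difference between the lyp effects was called for 0 of 13, beside 0.283% of all, and 5 had an unadjusted p under 0.05, beside 7.63% of all. Of these 5, Ccl2, Cxcl1 (-1.28, SE 0.34, adjusted p = 0.287), Cxcl10 (-1.09, SE 0.31, adjusted p = 0.34), Cxcl2 (-1.10, SE 0.47, adjusted p = 0.638) and Cxcl12 1388583_at (-0.70, SE 0.19, adjusted p = 0.328), all had values below 0. Cxcl1 was called without JBlyp/lyp replicate 2 (adjusted p = 0.0287). In simulated data on these arrays, 50.7% of changes of 1 were recovered for lyp in JB, 52% for lyp in F344 and 23.3% for their difference, so changes of this size were often not detectable. The simulated data also held changes of 2 and 3, mostly recovered (91.3% and 98.7% for lyp in JB). The real data held fewer calls for lyp in JB, which makes the adjusted threshold stricter than in the simulation. Recovery of a change of 1 may thus be lower there than simulated.

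Of 17 chemokine receptor genes measured, 4 were higher and 2 lower in DR+/+ than in JB, where 15.5% of all 14217 genes were higher and 18.4% lower. In DR+/+ against F344 3 were higher and 2 lower (3 in all without either F344 array), beside 16.3% and 23.8% of all genes. In JB against F344 0 were higher and 1 lower, beside 4.79% and 8.22% of all genes, and in JBlyp/lyp against F344lyp 0 and 2, beside 4.70% and 11.3% (1 without JBlyp/lyp or F344lyp replicate 2). Cxcr2, the receptor of Cxcl1 and Cxcl2, read 3.49 to 3.98 on all arrays and was lower in DR+/+ than in JB (difference -0.46, SE 0.13, adjusted p = 0.0228), where Cxcl1 was higher. That call ended at least without DR+/+ replicate 1 or either JB array. Cxcr3, the receptor of Cxcl10 and Cxcl9, was called in none of the 8 comparisons, and its JB value against F344 was -0.48 (SE 0.26, adjusted p = 0.28). Ccr6, the receptor of Ccl20, was higher in DR+/+ than in JB by 0.90 (SE 0.27, adjusted p = 0.0291), which ended without DR+/+ replicate 2 or JB replicate 1, with the RNA measure as a covariate and with only the groups compared. Cx3cr1, the fractalkine receptor, read 4.58 to 4.91 on the BB-related arrays, and its BB-related mean was lower than that of F344 and F344lyp (difference -0.39, SE 0.09, adjusted p = 0.01), which ended without F344 replicate 1 and without the DR+/+ arrays. Ackr1, an endothelial chemokine sink, was lower in DR+/+ than in F344 (difference -1.91, SE 0.18, adjusted p = 4.84e-05) and lower in JB than in F344 (difference -1.03, SE 0.18, adjusted p = 0.00744), the latter ending without F344 replicate 1. Ackr4, a decoy receptor, was higher in F344lyp than in F344 by 1.09 (SE 0.14, adjusted p = 0.00526), which ended without either F344 array or F344lyp replicate 2. Ccr2, Ccr3 and Ccr1 were called in none of the 8 comparisons.

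Of 21 other chemokine genes measured, 1 was higher and 3 lower in JB than in F344 (1 in all without F344 replicate 1), beside 4.79% and 8.22% of all genes. In DR+/+ against JB 3 were higher and 1 lower, beside 15.5% and 18.4%. Ccl6, a CC chemokine of rodent myeloid cells, read 6.77 and 6.78 in F344lyp and 5.4 and 5.3 in F344 (difference 1.42, SE 0.20, adjusted p = 0.0092). Cxcl13, a B cell attractant, was also higher with lyp in F344 by 1.14 (SE 0.22, adjusted p = 0.0406), so that 2 of 21 were higher there and 0 lower, beside 1.58% and 0.317% of all genes. Each of these calls ended without any 1 array of F344 or F344lyp, and that of Cxcl13 without either DR+/+ array too, and both ended with the RNA measure as a covariate. In the same comparison 3 of 13 eosinophil and mast cell genes were higher, the mast cell proteases Cma1 (2.62, adjusted p = 0.000188), Cpa3 (2.13, adjusted p = 0.0005) and Tpsab1 (1.02, adjusted p = 0.0113), as was 1 of 20 macrophage and dendritic cell genes, Adgre1 (0.91, adjusted p = 0.02). The T cell genes Cd3d (-1.32, adjusted p = 0.000937) and Cd8a (-1.14, adjusted p = 0.0237) were lower, 2 of 18. The part of these cells in the Ccl2, Ccl6 and Cxcl13 results was not tested. Ccl6 was lower in JBlyp/lyp than in F344lyp (difference -2.03, SE 0.20, adjusted p = 0.000249). Pf4, a platelet chemokine, was lower in JB than in F344 (difference -1.40, SE 0.19, adjusted p = 0.00168) and higher in DR+/+ than in JB by 0.95 (SE 0.19, adjusted p = 0.00402).

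Of 7 proteases that cut or shed chemokines, 3 were higher and 0 lower in DR+/+ than in JB, beside 15.5% and 18.4% of all genes. Dpp4, which trims CXCL10, CXCL12 and CCL11, was higher by 1.77 (SE 0.19, adjusted p = 0.000107). Mmp2, a matrix metalloproteinase, was higher by 1.34 (SE 0.15, adjusted p = 0.000135). Adam17, a sheddase of fractalkine, was higher by 1.20 (SE 0.15, adjusted p = 0.000314). In JB against F344 limma called 0 of 7 (1 without either array of JB or of JBlyp/lyp), and their median difference was -0.37, beside -0.04 over all genes.

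Of 16 genes of interferon gamma signalling measured, 0 were called in the direction of Cxcl10 in 3 comparisons. For the JB and JBlyp/lyp comparisons, with 4.79% and 4.70% of all genes higher, 0 of 16 higher is near the share of all genes. In JB against F344 0 were higher and 4 lower (2 called without any 1 of 7 arrays), beside 4.79% and 8.22% of all genes. In JBlyp/lyp against F344lyp 0 were higher and 4 lower (8 called without JBlyp/lyp replicate 1), beside 4.70% and 11.3%. Cxcl10 was higher in both, and with the RNA measure as a covariate 0 of 16 were called in either. In DR+/+ against JB, where Cxcl10 was lower, 5 of 16 were higher and 0 lower (2 called without DR+/+ replicate 1, 3 with the covariate), beside 15.5% and 18.4% of all genes. Gbp2, an interferon-induced GTPase, read 4.61 and 4.40 in JB, 5.66 and 5.72 in F344 and 6.55 and 6.59 in DR+/+. It was lower in JB than in F344 (difference -1.18, SE 0.14, adjusted p = 0.00107) and higher in DR+/+ than in JB by 2.07 (SE 0.14, adjusted p = 1.27e-05). Psmb9, an immunoproteasome subunit, was lower in JB than in F344 (difference -1.37, SE 0.20, adjusted p = 0.00266). Ifng itself read 2.73 to 3.10 on all arrays and was called in none of the 8 comparisons. Irf8, a myeloid transcription factor of this list, is also expressed by macrophages and dendritic cells, whose markers were lower on the BB-related arrays, and their part here was not tested.

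Of 26 NF-kB and cytokine signalling genes measured, 5 were higher and 3 lower in DR+/+ than in JB (4 in all without DR+/+ replicate 2 and 5 with the RNA measure as a covariate), beside 15.5% and 18.4% of all genes. In DR+/+ against F344 5 were higher and 2 lower (4 in all without DR+/+ replicate 1 or F344 replicate 2, and 0 with the covariate), beside 16.3% and 23.8%. Ptgs2, the inducible cyclooxygenase, read 7.17 and 7.45 in DR+/+ against 3.75 and 4.19 in JB (difference 3.34, SE 0.22, adjusted p = 1.14e-05). Icam1, a leukocyte adhesion molecule, was higher in DR+/+ than in JB by 1.65 (SE 0.17, adjusted p = 9.15e-05), and Vcam1, another, by 1.40 (SE 0.20, adjusted p = 0.000557). Vcam1 was lower in JB than in F344 (difference -0.86, SE 0.20, adjusted p = 0.0209), which ended without JB replicate 1 or either F344 array and with the covariate. Il1r1, the signalling receptor of interleukin-1, read 8.86 and 8.72 in DR+/+ and 9.86 to 10.59 on the other arrays. It was lower in DR+/+ than in JB (difference -1.49, SE 0.20, adjusted p = 0.000453) and than in F344 (difference -1.13, SE 0.20, adjusted p = 0.00198), the latter ending with the covariate. Tnfaip3, the NF-kB feedback inhibitor A20, was higher in DR+/+ than in F344 by 1.59 (SE 0.24, adjusted p = 0.000678) and in JB than in F344 by 1.06 (SE 0.24, adjusted p = 0.0198), the latter ending without JB replicate 2 or either F344 array. In JB against F344 1 of 26 was higher and 1 lower, Tnfaip3 being the higher member, and 0 were called without either F344 array.

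The genes most like the 3 chemokines of widest range were sought over the 10 arrays, which share their groups, so that a high correlation needs no more than the same order of 5 group means. Closest to Cxcl10 were Gria3 (Pearson's r = 0.98), Kcnip1 (0.97) and Gas2 (0.97). Closest to Cxcl1 were Sat1 (0.98), Cd2ap (0.98) and Tnfaip3 (0.97). Closest to Cxcl12 1388583_at were Ppfibp2 (0.99), Ano1 (0.99) and Cd44 (0.99). Among the chemokines themselves, Ccl11 correlated with Cxcl1 at 0.89 and with Cxcl12 at 0.88, Cx3cl1 with Cxcl12 at 0.85, and Cxcl10 with Cx3cl1 at -0.86.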

How the data were processed

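RNA from isolated islets was labelled and hybridised to 10 rat expression arrays, 2 per group. The deposited values are log2 intensities per probe set, for which the submitters' processing notes name GCOS and RMA without versions. The table held 31099 probe sets, and its 57 control probe sets were left out. There were no detection calls, and for arrays their number limits the precision. limma 3.58.1 in R 4.3.3 fitted 1 mean per group to every probe set, with two-sided moderated tests (5 residual and 4.72 prior degrees of freedom), and p-values were adjusted by Benjamini-Hochberg over all probe sets within a comparison. No probe set was filtered. Probe sets were named by the array annotation, and a gene of a list is represented by its brightest probe set. Arrays of a group correlated at 0.981 to 0.997 and no arrays held identical values.

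The members, the 15 gene lists (other chemokines, receptors, proteases, NF-kB, interferon gamma, and markers of macrophages, T, B, eosinophil and mast, neutrophil, endothelial, stellate, acinar, ductal and beta cells) and the tests were chosen with earlier results of these data known. The text names every member and, of each list of signalling genes, called members among the 4 with the largest difference. Chosen after the values were seen were 4 added pairs of groups, lyp averaged over both backgrounds, receptor pairs and the neighbouring genes. Promoters were searched first for the spelled elements, and the degenerate NF-kB consensus was added after the sequences were seen. Of B cell genes 0 of 4 and of neutrophil genes 0 of 6 were called in JB against F344, and of ductal genes 2 of 10, all lower. Over all genes 4.79% were higher and 8.22% lower there, so 0 in lists this short is near the share of all genes.

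The model was tested on simulated data from these arrays. Alternatives were quantile normalization, a filter on dim probe sets, an intensity trend, the Gapdh covariate, the replicate number as a block, only the groups compared, and leaving out each array. Figures used matplotlib 3.10.9 in Python 3.11.15.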

Additional observations from a re-analysis of the deposited data

How the results depend on the processing

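Counts below are of the 13 chemokine probe sets called, and a value not called under either setting was not read for direction. With the Gapdh 3′ excess as a covariate 0 were called for BB-related against F344 (8 in the report), JB against F344 (4), JBlyp/lyp against F344lyp (5), lyp in F344 (1) and DR+/+ against F344 (7), and 6 for DR+/+ against JB (7). Over all probe sets that covariate left 8 calls of 10300 for BB-related against F344. With group as a random block 1 remained for BB-related against F344. With only the groups compared in the fit, JBlyp/lyp against F344lyp had 2 and lyp in F344 had 4. Leaving out 1 array gave 5 to 10 for BB-related against F344, 3 to 5 for JB against F344, 2 to 6 for JBlyp/lyp against F344lyp, 0 for lyp in JB, 0 to 2 for lyp in F344, 0 to 1 for the difference between the lyp effects, 5 to 8 for DR+/+ against JB and 4 to 7 for DR+/+ against F344. The lowest counts came without F344lyp replicate 2 (BB-related against F344), without either F344lyp array (JBlyp/lyp against F344lyp) and without either DR+/+ array or F344 replicate 2 (DR+/+ against F344). Signs turned with the covariate in BB-related against F344 for Cxcl9 1373544_at (0.31) and 1382454_at (0.079) and for Ikbkb (0.22), in DR+/+ against F344 for Ciita (0.23), in DR+/+ against F344lyp for Cxcl10 (0.13), and in JB against F344lyp for Cxcl9 1373544_at (0.26) and Ccl11 (-0.035). Without the DR+/+ arrays they turned for Cxcl12 1388583_at (-0.25) and Ackr3 (-0.16) in BB-related against F344. The cause was not tested.

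The replicate numbers share only a number: the deviations of same-numbered arrays correlated at -0.10 to 0.65 over 10 pairs of groups, 5 of them over 0.1. With the replicate number as a block 9, 6, 6, 0, 2, 0, 8 and 7 probe sets were called in the 8 comparisons, in the order given above. Quantile normalization, the filter on dim probe sets and the intensity trend moved no count by more than 2. The filter, which required 6 on at least 2 arrays, removed Ccl11, both Cxcl9 probe sets and the dimmest of Cxcl12. These were thus not tested under it. Of 32 called values 5 were called under every setting that tested them, all in DR+/+ against JB: Cxcl10, 2 of Cxcl12, Ccl11 and Cx3cl1. For Ccl11 those settings do not include the filter.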
